A study of Homo sapiens with 4 samples.

Results

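The long arm of chromosome 5, written 5q below, was described from lists of ATAC-seq peaks of 786-O cells. Overlapping peaks (1 bp or more) of all 4 libraries were merged into regions, and the members are the 2253 merged regions on chromosome 5 that start after position 51000000 of hg38, of 53572 merged regions in all. Of these 2253, 1406 and 2070 had a peak in DMSO replicate 1 and replicate 2, respectively, and 632 and 852 in the corresponding ACSS2i libraries. The short arm of chromosome 5 (regions starting before 46000000, written 5p) held 794 regions and the other 21 autosomes 49076, and these served for comparison. 786-O is a human clear cell renal cell carcinoma line without functional VHL, the protein that marks hypoxia-inducible factors for degradation. One group of cultures received DMSO, the vehicle, and the other 5 µM of the compound the labels call ACSS2i, both for 24 h, after which cells were frozen, thawed and treated with DNase I. There were 2 libraries per group from a single cell line, and nothing in the labels says that these came from separate cultures. The study's stated aim was to assess how accessibility changes under the compound.

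ATAC-seq uses the Tn5 transposase, which cuts and tags DNA where nucleosomes and other proteins leave it open, so a peak marks an accessible stretch such as a promoter or an enhancer. Extra copies of 5q are a frequent change in clear cell renal carcinoma and often accompany the loss of 3p, since an unbalanced exchange between chromosomes 3 and 5 can produce both. SQSTM1, near the end of 5q, has been named as a gene that such a gain may act through. A peak caller compares the fragments at a summit with a local background of fragments around it, and that background scales with how many copies of the DNA a library contains as well as with the fragments of the peak itself.

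All values are the authors' peak calls within each library, and how many reads each library held is not given in the sources. Over the whole genome the lists held 34696 (replicate 1) and 50294 (replicate 2) peaks for DMSO, and 16400 and 22044 for ACSS2i. The lowest background solved in each library, its genome background, was 2.06, 1.75, 2.32 and 3.16 fragments per position in the same order. The ACSS2i lists were the shorter ones and their genome backgrounds the higher ones, and the part of either in the results below was not tested. Starts of 10 genes of this kidney carcinoma type, among them PAX8 and VIM, had a peak in both DMSO libraries in 10 of 10 cases, and in 7 and 10 cases in ACSS2i replicates 1 and 2. None of 5 immune or 4 endothelial genes had a peak in any library, and of 3 matched neuronal genes only SNAP25 had one, in the DMSO libraries. Of all autosomal protein-coding genes, 38.5% had no start peak in any library.

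The promoters below belong to strong members that kept or lost their peak in the ACSS2i lists. Each is the 250 bases before a start that RefSeq lists for the gene on GRCh38.p14, on the gene's strand, 5′ to 3′. The starts used for CANX, TRIM36 and MCC lie inside their gene spans, away from the 5′ end of the span. CANX, RBM27 and TRIM36 are the strongest promoter regions of 5q and had a peak in all 4 libraries, while MCC and XRCC4 had strong DMSO peaks and no ACSS2i peak. Capitals mark every match, on either strand, to the GC box GGGCGG, the CCAAT box, the ETS motif CCGGAAG and the hypoxia response core ACGTG or GCGTG. The AP-1 motif TGANTCA, the TEAD motif CATTCC and TATAAA were also searched and had no match in these 5 windows.
CANX, chr5:179698679-179698928, + strand: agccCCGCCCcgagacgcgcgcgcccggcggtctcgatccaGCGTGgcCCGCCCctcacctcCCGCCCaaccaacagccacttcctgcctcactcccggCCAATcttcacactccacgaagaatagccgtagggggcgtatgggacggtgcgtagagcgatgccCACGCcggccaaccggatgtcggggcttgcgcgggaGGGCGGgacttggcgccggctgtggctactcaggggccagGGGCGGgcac
RBM27, chr5:146203355-146203604, + strand: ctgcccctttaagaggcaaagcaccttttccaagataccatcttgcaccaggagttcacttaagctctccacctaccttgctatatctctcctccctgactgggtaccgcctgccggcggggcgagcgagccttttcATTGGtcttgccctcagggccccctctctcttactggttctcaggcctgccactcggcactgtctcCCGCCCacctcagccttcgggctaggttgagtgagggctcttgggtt
TRIM36, chr5:115169909-115170158, − strand: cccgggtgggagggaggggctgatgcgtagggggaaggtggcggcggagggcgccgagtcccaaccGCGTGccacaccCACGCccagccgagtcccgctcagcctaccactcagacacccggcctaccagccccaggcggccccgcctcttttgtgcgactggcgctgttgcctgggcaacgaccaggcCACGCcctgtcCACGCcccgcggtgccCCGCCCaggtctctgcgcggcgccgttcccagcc
MCC, chr5:113294939-113295188, − strand: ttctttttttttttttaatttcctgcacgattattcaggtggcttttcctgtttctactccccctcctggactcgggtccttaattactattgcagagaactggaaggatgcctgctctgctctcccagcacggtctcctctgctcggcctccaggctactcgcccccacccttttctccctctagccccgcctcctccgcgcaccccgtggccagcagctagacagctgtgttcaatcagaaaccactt
XRCC4, chr5:83077297-83077546, + strand: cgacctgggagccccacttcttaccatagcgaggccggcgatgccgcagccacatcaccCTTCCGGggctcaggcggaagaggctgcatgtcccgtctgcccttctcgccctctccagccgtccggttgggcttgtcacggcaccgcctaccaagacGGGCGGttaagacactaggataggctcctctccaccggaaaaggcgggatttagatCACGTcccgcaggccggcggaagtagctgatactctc

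CANX, which encodes the endoplasmic reticulum chaperone calnexin, had a window of 71.6% G and C with 5 GC boxes, 1 CCAAT box and 2 hypoxia response cores. Its region had an enrichment of the summit over local background, the authors' fold, of 9.64 and 12.2 in DMSO, against 7.38 and 8.32 in ACSS2i. The window of RBM27, an RNA-binding protein gene, held 1 GC box and 1 CCAAT box, with folds of 10.7, 15.04, 7.36 and 8.42. The window of TRIM36, a ubiquitin ligase gene, held 1 GC box and 4 hypoxia response cores, with folds of 10.8, 13.2, 7.27 and 6.74. In all 3 regions both DMSO folds lay above both ACSS2i folds, but these regions were picked for high DMSO strength, which favours high DMSO folds. No share over all regions is given beside this or the like comparisons of folds below. MCC, a candidate tumour suppressor gene of the colon, had no match to any motif searched, and its region had folds of 7.81 and 11.2 in DMSO. XRCC4, whose product acts in the joining of broken DNA ends, had 1 GC box, 1 ETS motif and 1 hypoxia response core, and its region, shared with the start of TMEM167A, had folds of 8.83 and 12.2 in DMSO. Neither region had a peak in an ACSS2i library. A fold is relative to the background of its own library, so its level across libraries is not a change in accessibility.

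These matches are common. In the 250-base windows of 22199 promoters of protein-coding genes, 53.7% held a GC box, 32.7% a CCAAT box, 10.7% the ETS motif and 49.3% a hypoxia response core. On 5q, 70.3% of the 222 promoters with a peak in all 4 libraries held a GC box, against 62.0% of the 108 promoters with a peak in both DMSO libraries alone and 28.8% of the 392 with no peak. The ETS motif was in 18.9%, 13.9% and 2.81% of these sets and the hypoxia response core in 65.8%, 59.3% and 36.2%. The sets also differed in base composition, with median G and C contents of 65.8%, 64.0% and 50.8%. On the other autosomes the GC box shares were 73.6% of promoters with a peak in all 4 libraries and 69.3% of those with a peak in both DMSO libraries alone, both above the 5q shares; these differences were not tested.

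The arm carried slightly fewer accessible regions per length than the rest of the genome and slightly more per gene. Over 130.5 Mb, from position 51000000 to the end of the last annotated gene, there were 17.3 regions per Mb, 0.947 times the 18.2 per Mb of the other autosomes, and 3.07 regions per protein-coding gene, 1.14 times the value elsewhere. Of the regions, 18.5% lay within 1000 bp of an end of a protein-coding gene span, 43.1% elsewhere inside a span and 38.4% between spans. Peaks on 5q numbered 1429 and 2090 for DMSO (replicates 1 and 2), against 666 and 884 for ACSS2i. Both ACSS2i counts were below both DMSO counts, with means of 1760 ± 467 (SD, n = 2) and 775 ± 154 (SD, n = 2), a ratio of 0.440 beside 0.452 for the peaks of all chromosomes. The two-sided exact permutation test gave p = 0.333, the smallest p that 2 libraries against 2 allow. Of the autosomal peaks, 4.23% and 4.27% lay on 5q in DMSO, against 4.12% and 4.09% in ACSS2i. The groups did not overlap, but the difference of -0.141 percentage points had a two-sided exact permutation p of 0.333, and when every list was reduced to the length of the shortest it was 0.00158.

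Strength, the percentile of a peak's −log10 q within its library, was taken for each region as the lower of its DMSO percentiles. The 1285 members called in both DMSO lists had a median strength of 50.8 (quartiles 28.3 and 74.5), against 51.8 on the other autosomes and 55.0 on 5p. With every list reduced to the length of the shortest, the median on 5q was 1.83 percentiles above that of the other autosomes, so the order of these medians depends on list length. The highest values belonged to regions between genes. The strongest member, at chr5:150316999-150317775, lay 14.1 kb from ARSI, a sulfatase gene, with folds of 10.1 and 12.3 in DMSO, against 10.2 and 7.58 in ACSS2i. Next came chr5:138943968-138945290, 1.43 kb from SIL1, which encodes a partner of an endoplasmic reticulum chaperone, with folds of 10.0, 10.9, 10.6 and 8.94. For the region near ARSI the groups overlapped, since ACSS2i replicate 1 was level with DMSO replicate 1, and for the region near SIL1 they overlapped as well.

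The rest of the 10 strongest members lay inside genes, at gene starts and between genes. SH3TC2, an endocytic recycling gene, had one of them 15.7 kb outside its span at chr5:148965596-148966475 and another inside it at chr5:149001877-149003326. The region at chr5:173454489-173455806, 126 kb from STC2, had folds of 10.9, 13.3, 9.29 and 9.59, with both ACSS2i values below both DMSO values. STC2 encodes stanniocalcin 2, a secreted glycoprotein and hypoxia target, and at its own start a peak was present in DMSO alone, with folds of 3.09 and 4.75. The start of GM2A, a lysosomal lipid-binding protein gene, went from 11.3 and 14.2 in DMSO to 4.76 and 5.29 in ACSS2i, the lowest ACSS2i folds of the 10 and without overlap. The start of ANKHD1, a KH-domain protein gene, had 8.52, 9.29, 9.57 and 7.74, with overlapping groups. CANX, RBM27 and TRIM36, shown above, complete the 10, which were picked for high DMSO strength, a choice that favours high DMSO folds. All 10 had a peak in every library and lay beyond position 106892185.

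That position divides the arm into a proximal stretch of low local background and a distal stretch of higher background. It was placed where the share of summits at the genome background changes most along 5q in both DMSO libraries together, a choice made after seeing these values. Located in each library alone it fell at 101.7 and 106.7 Mb in the DMSO libraries, and at 103.0 and 98.9 Mb in the ACSS2i libraries, which had no part in the choice. The proximal stretch held 610 regions and 210 protein-coding genes over 55.9 Mb, and the distal stretch 1643 regions and 525 genes over 74.6 Mb. In the ACSS2i libraries, 78.9% and 81.4% of proximal summits sat at the genome background, against 0.397% and 3.45% of distal summits and 6.41% and 10.8% on the other autosomes. In the DMSO libraries, whose values placed the division, the shares were 42.9% and 31.7% proximally and 0.472% and 4.19% distally.

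Compared at equal fold with summits of the other autosomes, local background on the whole of 5q was 0.981 and 0.890 of theirs in DMSO, against 1.06 and 1.02 in ACSS2i. The groups did not overlap, with means of 0.936 ± 0.0647 (SD, n = 2) and 1.04 ± 0.0292 (SD, n = 2) and a two-sided exact permutation p of 0.333. These values near 1 join unlike stretches. Proximal summits had ratios of 0.552 and 0.514 in DMSO, against 0.683 and 0.665 in ACSS2i, and distal summits 1.11 and 1.10 in DMSO, against 1.10 and 1.09 in ACSS2i. The distal background was thus 2.02, 2.13, 1.61 and 1.65 times the proximal background in the 4 libraries. The caller never reports less than the genome background, so a proximal ratio is an upper limit wherever most summits sit there, as they did in ACSS2i.

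**Figure D1:**
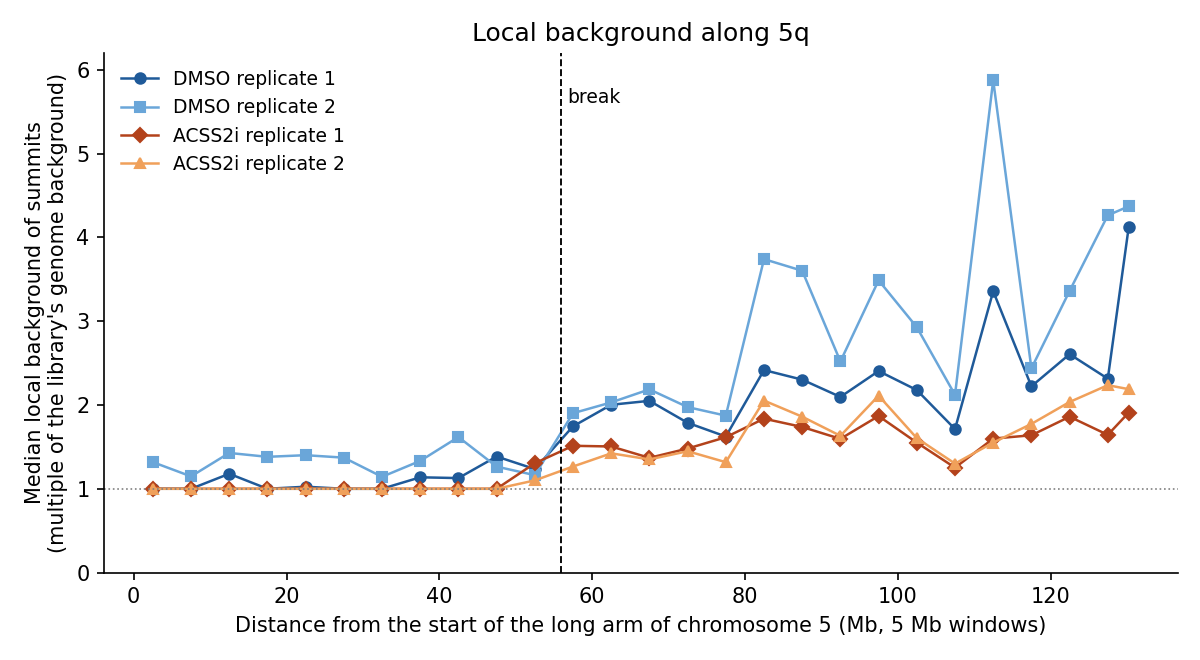
Median local background of the summits in 5 Mb windows along 5q (x axis, distance from position 51000000 in Mb; the last window is shorter), as a multiple of each library's genome background (y axis, linear); points are libraries and the dashed line is the division at 106892185. Before the division, which was placed by DMSO background, the window medians lie between 1 and 1.62 in every library, and after it between 1.25 and 5.88.

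The step was also described window by window. The background of the DMSO libraries placed the division, so the contrast of their windows across it is in part set by that choice. Only the ACSS2i windows had no part in it. In the 11 windows wholly before the division, medians relative to genome background were 1 to 1.38 and 1.14 to 1.62 in DMSO, and 1 to 1.30 and 1 to 1.10 in the ACSS2i libraries. In the 15 windows wholly after it they were 1.62 to 4.12 and 1.87 to 5.88, and 1.25 to 1.91 and 1.30 to 2.24. The 2 sets of windows overlapped in ACSS2i replicate 1 alone. The highest values rest on few peaks, since the window with 5.88 held 11 peaks of DMSO replicate 2 and the window with 4.12 held 14 peaks of DMSO replicate 1. The regions with the highest background among those in all 4 libraries were distal and lay near JADE2, a histone acetyltransferase scaffold gene (chr5:134506174-134506777), at SYNPO, which encodes an actin-binding podocyte protein, and at PDLIM7. Their means were 8.001, 7.52 and 7.49 times the genome background. The lowest were proximal, 78.6 kb from RPS23 (chr5:82356945-82357731), at SREK1, a splicing factor gene, and 39.4 kb from MAP1B, with means of 1.01, 1.15 and 1.19.

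Ranked among the other 21 autosomes and 5p, the proximal stretch had the lowest ratio of background (mean of 4 libraries 0.603). The highest was that of 5p (1.29), and the distal stretch had 1.10. The proximal stretch was cut out by its DMSO background, so its low rank is in part set by that choice. Uncut, 5q had a mean of 0.990 and ranked 14th from the highest of 23. By library, the proximal stretch was the lowest in 3 of 4, with chromosome 14 lower in ACSS2i replicate 1, and 5p was the highest in 2 of 4 but 15th from the lowest of 24 in DMSO replicate 2. Chromosome 14, chosen for comparison because its value was the next lowest, had 0.651, 0.704, 0.679 and 0.674 in the 4 libraries. Its 4 values all lay above the 2 proximal DMSO values, while the 2 proximal ACSS2i values fell among them. The short arm of chromosome 3, the arm often lost in this cancer, had 0.821, 0.793, 0.839 and 0.823. 5p had 1.39, 1.10, 1.42 and 1.25, so that 5p and distal 5q were level in DMSO replicate 2 and 5p was higher in the other 3 libraries. These ratios are a guide to DNA copies only, since open chromatin around a summit adds fragments to the same background.

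**Figure D2:**
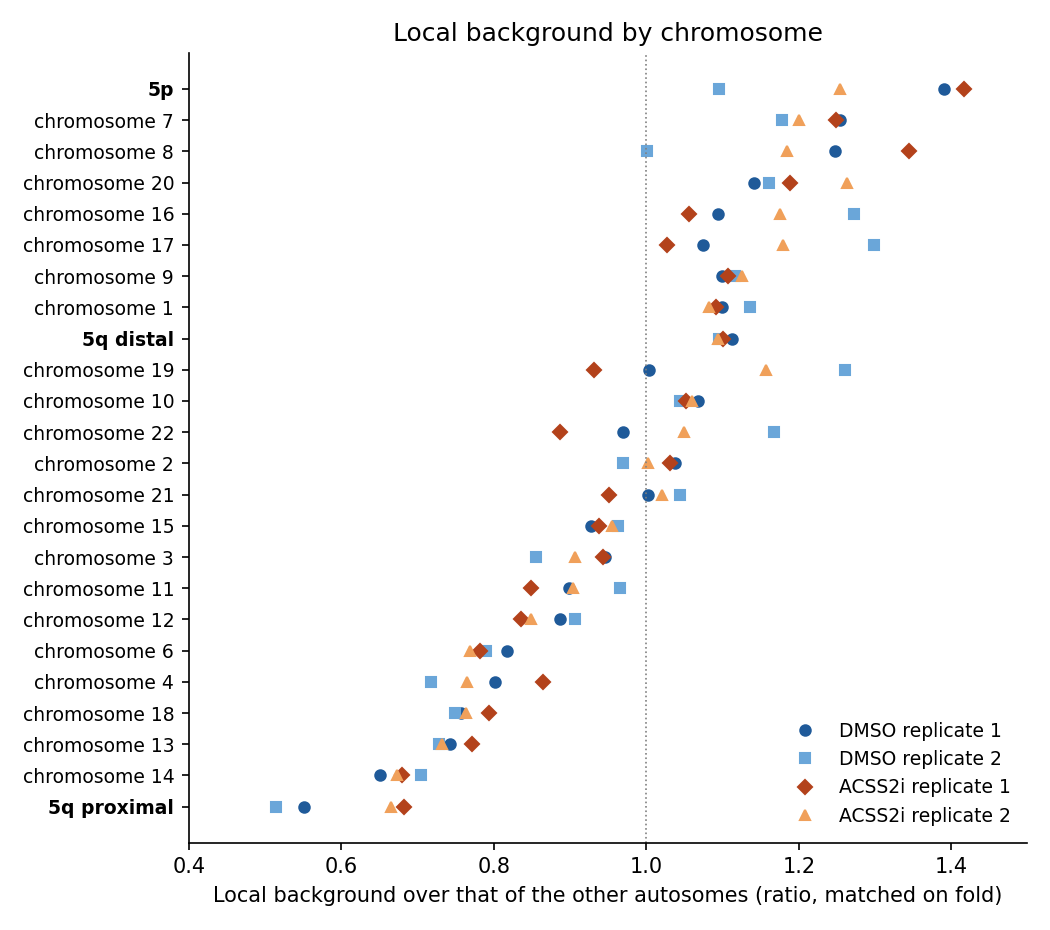
Local background over that of the other autosomes at equal fold (x axis, ratio, linear), for each autosome, 5p and the proximal and distal stretches of 5q (y axis, ordered by the mean of 4 libraries; chromosome 5 entries in bold); points are libraries. By the mean, the proximal stretch of 5q, cut out by its DMSO background, is at the bottom with 0.514 to 0.683. 5p is at the top with 1.10 to 1.42, where other chromosomes exceed it in DMSO replicate 2 and ACSS2i replicate 2.

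Peak numbers followed the same division. Proximal peaks numbered 359 and 572 in DMSO, against 80 and 149 in ACSS2i, and distal peaks 1070 and 1518 in DMSO, against 586 and 735 in ACSS2i. The ratio of ACSS2i to DMSO means was 0.246 proximally and 0.510 distally. Proximal peaks made up 25.1% and 27.4% of the 5q peaks in DMSO, against 12.01% and 16.9% in ACSS2i, with both ACSS2i shares below both DMSO shares. Per Mb, the proximal stretch had 0.541 and 0.597 times the regions of the other autosomes in DMSO, against 0.252 and 0.352 times in ACSS2i. The distal stretch had 1.21 and 1.19 times in DMSO, against 1.39 and 1.30 times in ACSS2i. Gene density differed too, with 3.76 protein-coding genes per Mb proximally, 7.04 distally and 6.77 on the other autosomes.

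**Figure D3:**
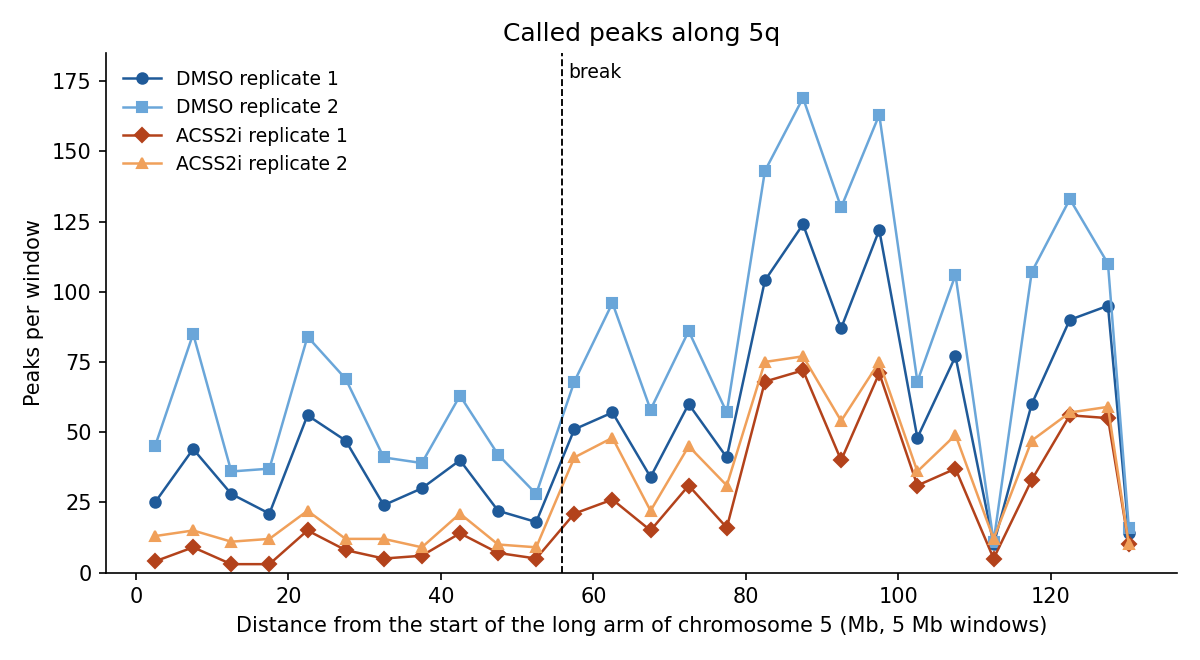
Called peaks per 5 Mb window along 5q (x axis, distance from position 51000000 in Mb; the last window is shorter; y axis, peaks per window, linear); points are libraries and the dashed line is the division. In windows before it DMSO replicate 1 has 18 to 56 peaks and ACSS2i replicate 1 has 3 to 15.

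A region was counted as lost when both DMSO libraries had a peak and neither ACSS2i library did. On 5q, 456 of 1285 regions were lost (35.5%, exact binomial 95% interval 32.9% to 38.2%, which covers counting error only), near the 33.2% of all autosomal regions, and 537 (41.8%) had a peak in all 4 libraries, near the 42.7% of all autosomal regions. Given the strength of its peaks, a loss of 33.9% would be read off the other autosomes, 1.59 percentage points less. Proximally 177 of 316 regions were lost (56.0%, 50.3% to 61.6%) and 65 (20.6%) were kept in all 4, and distally 279 of 969 were lost (28.8%, 25.96% to 31.8%) and 472 (48.7%) kept. ACSS2i replicates 1 and 2 kept 23.1% and 41.5% of the proximal regions and 54.6% and 65.3% of the distal ones, so both proximal values were below both distal values. The counts of lost regions depend on single libraries, with proximal and distal shares of 74.0% and 51.3% without DMSO replicate 1 and 76.9% and 45.4% without ACSS2i replicate 2. The proximal share was the higher one without each library in turn.

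Proximal regions were weaker in DMSO, with a median strength of 37.7 against 55.7 distally. The stretch was cut out by low DMSO background, and strength rises with background at equal fold. This difference in strength is therefore in part set by that choice. The difference in loss was also present at equal strength. At the strength of the proximal regions the other autosomes would give 44.6%, so the observed 56.0% was 11.4 percentage points higher. The excess was 7.47 points without ACSS2i replicate 1, and between that and 11.8 without any other library. Distally 30.4% would be read off, 1.61 points above the observed share. In the 3 weakest strength deciles, 122 of 145 proximal regions were lost (84.1%), 172 of 252 distal regions (68.3%) and 71.7% on the other autosomes. In the middle 4 deciles the shares were 39.1% of 133, 27.4% of 368 and 27.6%, and in the strongest 3 deciles 3 of 38 proximal regions (7.89%), 6 of 349 distal regions (1.72%) and 1.64%. When regions were matched on DMSO background as well as strength, the value read off for the proximal stretch was 56.9%, so the observed share minus that value was -0.854 points, and for the distal stretch it was 29.0%. Chromosome 14 had a loss of 46.4%, with 41.3% read off by strength and 49.0% by strength and background. The short arm of chromosome 3 had 35.7%, with 34.7% and 37.5% read off in the same order. 5p went the other way, with a loss of 33.9% and 29.8% and 25.8% read off. Matching on background thus raised the value read off for some parts and lowered it for others, and the reason was not tested.

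**Figure D4:**
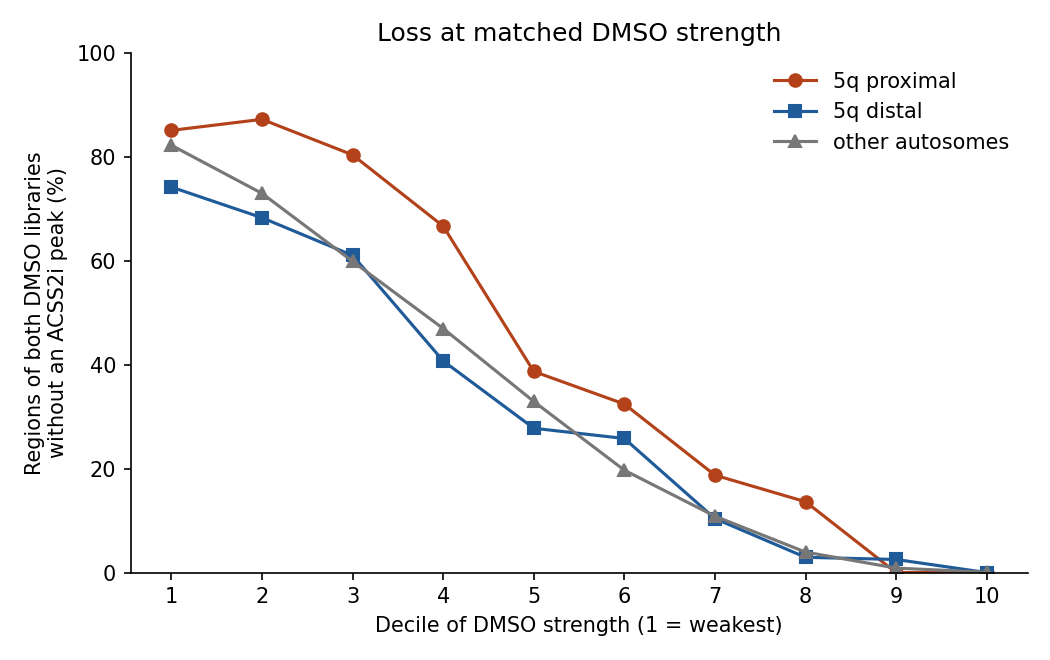
Share of regions with a peak in both DMSO libraries that had no ACSS2i peak (y axis, percent, linear) by decile of DMSO strength (x axis, 1 the weakest); lines are the proximal stretch, the distal stretch and the other autosomes. The proximal line is the highest in deciles 1 to 8, where it falls from 85.1% to 13.6%, and it is 0 in deciles 9 and 10, which hold 13 and 3 proximal regions.

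Away from gene ends 140 of 219 proximal regions were lost (63.9%, 57.2% to 70.3%, with 49.99% read off by strength). Within 1000 bp of a gene end 37 of 97 were lost (38.1%, 28.5% to 48.6%), an interval that holds the 31.0% read off by strength. Distally 239 of 714 regions away from gene ends were lost (33.5%, with 35.4% read off) and 40 of 255 near them (15.7%, with 17.8% read off). The 11 proximal windows of 5 Mb had losses of 44.7% to 67.4% with a median of 55.6%, and the 15 distal windows 21.8% to 41.9% with a median of 30.2%, so the windows did not overlap. In the 10 Mb on either side of the division, 11 of 23 regions (47.8%) were lost before it and 28 of 108 (25.9%) after it. The division was placed by DMSO background, so these contrasts can in part be set by that choice. Windows are not replicates, and some hold few regions, such as a distal window with 2 of 6 lost.

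Regions of 5q kept in all 4 libraries had a median width of 1123 bp against 566 bp for lost regions, and 35.6% against 16.9% lay near a gene end. The other autosomes gave nearly the same values, 1116 against 568 bp and 39.6% against 18.4%, and a region merged from more peaks is the wider by construction. The strongest lost region was distal, in RGS14, a regulator of G protein signalling (chr5:177370526-177371092), with DMSO folds of 9.69 and 9.12. Others were at MCC and in IL4, a cytokine gene (chr5:132677152-132677509, folds of 7.83 and 12.1). In the proximal stretch they lay in ERAP1, an aminopeptidase that trims antigenic peptides (chr5:96823689-96824335, folds of 10.8 and 12.7), at XRCC4, and in F2RL1, the gene of a protease-activated receptor (chr5:76831024-76831440, folds of 7.80 and 13.3). Another of the 8 strongest lay 23.8 kb from HAVCR1, the gene of a kidney injury marker (chr5:157005101-157005607). The highest DMSO strength among the 8 was the 86.4 of RGS14, so none reached the highest strength decile.

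At the starts of the 735 protein-coding genes of 5q, a peak within 1000 bp was present for 407 and 449 genes in DMSO, against 239 and 301 in ACSS2i. Starts came from RefSeq for 651 genes, and both ends of the gene span were used for the others, so a peak can belong to a neighbour. Both ACSS2i counts were below both DMSO counts. Among the 404 genes called in both DMSO lists, 221 were called in all 4 (54.7%, beside 58.7% of all autosomal genes) and 87 had none in ACSS2i (21.5%, beside 18.4% of all autosomal genes). No gene had a start peak in ACSS2i alone, and 283 had none in any library (38.5% of all autosomal genes had none). Proximal genes were the more often accessible in DMSO and the less often in ACSS2i, with a start peak in 126 and 146 of 210 genes in DMSO (69.5% in replicate 2), against 38 and 69 (18.1% and 32.9%) in ACSS2i. Distal genes had 53.5% and 57.7% of 525 in DMSO, against 38.3% and 44.2% in ACSS2i. In the proximal stretch 50 of 125 genes (40.0%) lost their start peak and 32 kept it in all 4 libraries, and in the distal stretch 37 of 279 (13.3%) lost it and 189 kept it. These shares were 69.6% and 28.3% without ACSS2i replicate 2 and 48.6% and 19.5% without DMSO replicate 1.

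**Figure D5:**
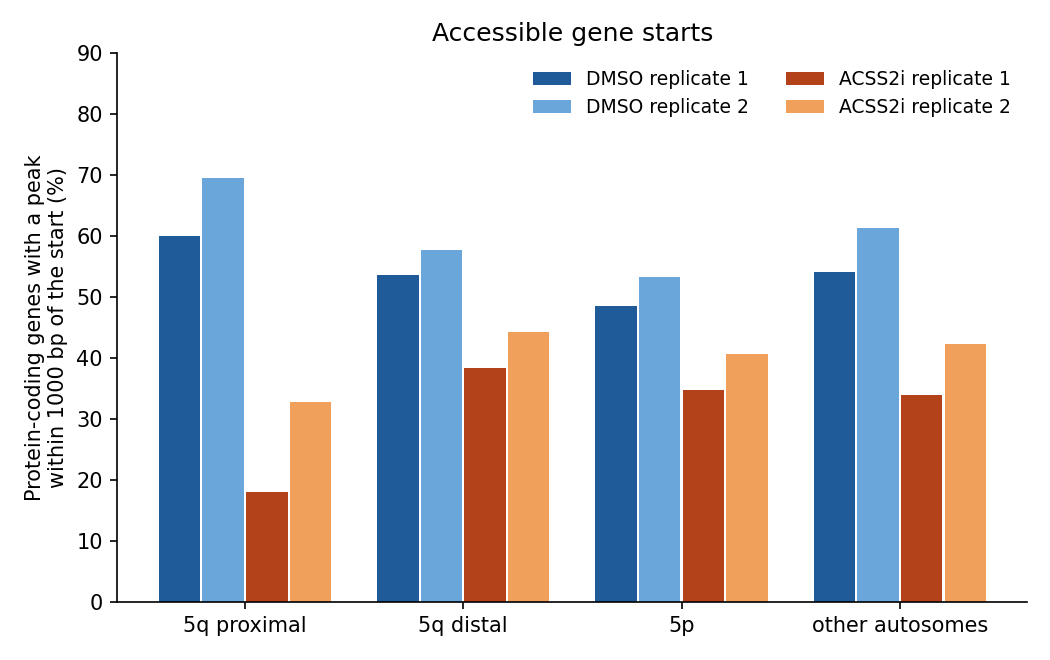
Share of protein-coding genes with a peak within 1000 bp of the start (y axis, percent, from 0) in each library (bars), for proximal 5q, distal 5q, 5p and the other autosomes. Proximal 5q has the highest DMSO bars (126 and 146 of 210 genes) and the lowest ACSS2i bars (18.1% and 32.9%).

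Genes were described in lists by role, which hold 177 genes of 5q in all. Of these, 89 had a start peak in both DMSO libraries, 54 in all 4, and 15 were lost (16.9%, beside 18.4% of all autosomal genes). Beside this and the list counts below, 10307 of all 19126 autosomal genes had a start peak in both DMSO libraries, and 404 of 735 on 5q. Among all proximal genes called in both DMSO lists, 25.6% were kept in all 4 and 40.0% were lost. Distally 67.7% were kept and 13.3% lost, and no list was tested against these shares. Of the 14 cell cycle and DNA repair genes, 9 lie in the proximal stretch. All 14 had a start peak in both DMSO libraries, 5 kept it in all 4 and 5 lost it. The 5 lost were all proximal, namely XRCC4, the kinetochore genes CENPK and CENPH, the checkpoint gene RAD17, and CDK7, a kinase of transcription and the cell cycle. CENPK had DMSO folds of 7.19 and 10.7, RAD17 of 5.56 and 10.1, CENPH of 6.87 and 9.91, and CDK7 of 4.91 and 8.79. The 5 kept were RAD50, CDC25C, CCNG1 and HMMR in the distal stretch and PLK2, a polo-like kinase gene, in the proximal one. CDC25C, the gene of a mitotic phosphatase, had folds of 8.66 and 14.8 in DMSO, against 8.51 and 8.69 in ACSS2i.

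All 10 ubiquitin and autophagy genes had a start peak in both DMSO libraries, 9 of them distal. In all 4 libraries 9 had one, beside 58.7% of all autosomal genes and 67.7% of distal genes called in both DMSO lists, and none was lost. SQSTM1, which encodes an autophagy receptor, had folds of 6.17 and 6.75 in DMSO, against 5.35 and 5.46 in ACSS2i, and both ACSS2i values were the lower. FBXW11 and UBE2D2, genes of a ubiquitin ligase subunit and a conjugating enzyme, were kept with 7.14, 10.2, 6.03 and 5.03, and with 6.83, 11.4, 5.48 and 5.70. The 10th, the conjugating enzyme gene UBE2B, lacked a peak in ACSS2i replicate 1. Of the 6 genes named as candidates of a gained 5q, all distal, SQSTM1, the receptor gene FGFR4, the ribosomal scaffold gene RACK1 and the nucleolar gene NPM1 were kept in all 4. NSD1 lacked a peak in ACSS2i replicate 1 and TGFBI in ACSS2i replicate 2. FGFR4 had 8.70 and 11.4 in DMSO, against 5.09 and 5.28 in ACSS2i, while RACK1 had 3.27 and 4.09 in DMSO, against 4.43 and 3.53 in ACSS2i, with overlapping groups.

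Chromatin genes, 9 of 10 of them distal, all had a start peak in both DMSO libraries, and 6 had one in all 4. Of all distal genes called in both DMSO lists, 67.7% were kept in all 4 and 13.3% lost. The 6 were HDAC3, a histone deacetylase, CHD1, a remodeller and the proximal member, BRD8, JADE2, MED7 and NPM1. MACROH2A1, a histone variant gene, was the 1 that was lost, with DMSO folds of 3.59 and 8.91. NSD1, KDM3B and TAF7 lacked a peak in ACSS2i replicate 1 only. Of 4 targets of hypoxia-inducible factors, LOX, which encodes an enzyme that crosslinks collagen, and STC2 were lost, with DMSO folds of 3.44 and 5.65 and of 3.09 and 4.75. P4HA2, a collagen prolyl hydroxylase subunit gene, had 6.57 and 9.58 in DMSO and 3.93 in ACSS2i replicate 2 alone, and VCAN, which encodes a matrix proteoglycan, had 3.46 in DMSO replicate 2 alone. The LOX and STC2 peaks were among the weaker ones, at percentiles 10.2 and 7.66 of DMSO replicate 1.

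Lipid and acyl metabolism genes had a start peak in both DMSO libraries in 8 of 10 cases, 6 were kept in all 4 and none was lost. Over all autosomal genes called in both DMSO lists, 58.7% were kept and 18.4% lost. STARD4, a sterol transport gene, had folds of 8.95 and 13.1 in DMSO, against 8.16 and 8.01 in ACSS2i, and HINT1 had 6.65, 11.2, 3.09 and 3.46. Of 5 kidney tubule genes, the transporter genes SLC22A4, SLC22A5 and SLC12A2 had a peak in all 4 libraries, and SLC34A1 and GPX3 had none in any. Of all autosomal genes, 38.5% had none in any.

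Signalling kinase and feedback genes were present in both DMSO libraries in 9 of 10 cases. Of these, 7, all distal, were kept in all 4, among them STK10, CSNK1G3 and CSNK1A1. Beside this and the next counts, 58.7% of all autosomal genes called in both DMSO lists were kept and 18.4% lost. Of the 3 proximal genes of that list, PIK3R1 and RASA1 lacked a peak in ACSS2i replicate 1 only, and MAP3K1 had one in DMSO replicate 2 alone. Among all genes called in both DMSO lists, 25.6% of proximal and 67.7% of distal ones were kept in all 4. Of 11 receptor and ligand genes 8 were present in both DMSO libraries, with 3 kept in all 4 (FGFR4, the cytokine receptor gene IL6ST, and FGF1) and 4 lost, among them F2RL1, CSF1R and HBEGF. F2RL1 had DMSO folds of 5.00 and 8.50 at its start, and CSF1R, the receptor gene of a macrophage growth factor, had 4.75 and 5.33. Of 13 transcription factor genes 7 were present in both DMSO libraries, 5 were kept (EGR1, IRF1, ZNF608, SMAD5 and NR3C1) and TCF7, a Wnt pathway factor, was lost. EGR1, an immediate early gene, had 5.69 and 7.92 in DMSO, against 8.97 and 5.16 in ACSS2i, with overlapping groups.

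Matrix and adhesion genes had a start peak in both DMSO libraries in 7 of 11 cases. Shares over all autosomal genes called in both DMSO lists were 58.7% kept in all 4 and 18.4% lost. SPARC alone was kept in all 4, with folds of 5.85, 8.17, 5.25 and 4.47, and EDIL3 and LOX were lost. The integrin genes ITGA1 and ITGA2, both proximal, lacked a peak in ACSS2i replicate 1 only. Of 9 translation and ribosome genes 7 were present in both DMSO libraries and 5 kept in all 4, including HNRNPA0 and PAIP2, while RPS23, the proximal one, was lost with DMSO folds of 4.91 and 7.24. Of the 53 genes of the protocadherin clusters, neuronal adhesion genes, 50 had no peak in any library, beside 38.5% of all autosomal genes. PCDHGC3 had one at its start in all 4, and PCDHGA12 and PCDHGC5 were placed by the ends of their spans, which share their last base with that of PCDHGC3. Of 13 immune genes of the arm, 9 had no start peak in any library, again beside 38.5% of all autosomal genes. IL5 and CSF2 had one in all 4 libraries, and the peak counted for IL5 lies where its span meets that of RAD50. CD14 and CD74 had one in DMSO replicate 2 alone, with folds of 4.23 and 3.02. None of 8 neuronal genes had a start peak in any library.

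Regions with a peak in ACSS2i alone were few on 5q. They numbered 62 of the 943 regions with an ACSS2i peak (6.57%, exact binomial 95% interval 5.08% to 8.35%), beside 6.06% of all autosomal regions, and came from ACSS2i replicate 1 in 15 cases and replicate 2 in 47. No region had a peak in both ACSS2i libraries and neither DMSO library. Of the 62, 7 were proximal and 55 distal, their median width was 227.5 bp, and 4.84% lay near a gene end. The 5 strongest were all from ACSS2i replicate 2, with folds of 3.96 to 4.14, and lay near or in MARCOL, CCDC192, the adhesion receptor gene TENM2, HINT1 (383 kb away) and the mitochondrial ferritin gene FTMT (336 kb away). On 5p, 85 of 361 regions with an ACSS2i peak had none in DMSO (23.5%, 19.3% to 28.3%), 73 of them from replicate 2 alone and 3 from both. The share on 5q was 2.37% without ACSS2i replicate 2, 12.9% without DMSO replicate 2, 1.81% for peaks with a −log10 q of at least 3 and 19.1% with lists of equal length.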

How the data were processed

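Per the submitters' processing notes, the tools were MACS2 2.1.2, Bowtie2, Trimmomatic 0.38, Picard 2.18.26, SAMtools 1.9 and bedtools, besides bcl2fastq 2.17, deepTools 3.5.0 and DiffBind, with hg38 as the build. For caller options, the Tn5 shift and the filter of the lists, nothing is given in the sources used here. The authors deposited, for each summit, the fold (a ratio of the summit over local background), −log10 p and −log10 q (p-value and q-value within the library, with −log10 q of at least 2), a score and the summit's offset. The deposited score entered no result. The offset gave the summit positions that placed the division and picked summits away from gene ends. Peaks were called per library, and several summits in an interval made 1 peak, which took its strongest summit's values.

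With Python 3.11.15, pandas 2.3.3 and scipy 1.17.1, a pileup in whole fragments and the Poisson background under it were solved from fold and −log10 p, within 0.001 of the deposited −log10 p for at least 99.99% of summits. A summit was at the genome background within 0.2% of its library's lowest value. Background ratios compared summits within deciles of fold, and losses were read off the other autosomes within 10 strata of DMSO strength. At equal fold a higher background gives a smaller Poisson p, so strength rises with background by construction. These steps were tested on simulated data. Library values were compared by exact permutation, and values over regions, gene lists and stretches carry no test. Shares of lost regions and starts without a library kept the set merged over 4 libraries, and all other values without a library were merged anew. The members and lists were chosen with earlier results of these data known, and the division of the arm, chromosome 14 and the comparisons that use them were chosen after seeing the data. Named were the 10 strongest members, the 8 strongest lost, the 5 strongest of ACSS2i alone, the 3 with the highest and lowest background, the leading genes of each list and all chromatin and hypoxia genes. Other list members were named where a count needed it. A few genes and regions that these rules give are not reported here. Gene positions came from RefSeq on GRCh38.p14, the same build, and 1 of the marker genes had no match. Lengths of chromosomes ran from the first to the last gene, and that of 5q from position 51000000 to the last gene. Strand of the reads, exons and introns were not used here.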

Additional observations from a re-analysis of the deposited data

How the results depend on the processing

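Of 113 alternative values for 12 results, 96 were labelled the same, 14 moved and 3 reversed. The peak count, the share of autosomal peaks and the group difference in background ratio were judged by direction alone. All other results were judged by the spread or interval of the reported value. Of the 96, 2 also changed sign: the loss beyond strength was -0.335 points on 5q when background was matched too, and 0.201 points distally at equal list length. Reduced to the length of the shortest list, the difference in the share of autosomal peaks on 5q was 0.00158 percentage points (exact permutation p = 1), DMSO strength on 5q was 1.83 percentiles above the other autosomes, relative density 0.904 and the share in ACSS2i alone 19.1%. Keeping only −log10 q of at least 3 gave a density of 0.934 and a share in ACSS2i alone of 1.81%, and merging at 200 bp gave a share of 9.05%. Density was 1.14 per protein-coding gene and 0.905 without the last 10 Mb of 5q. The proximal excess of loss was 22.97 points with no matching and -0.854 points when background was matched too, which was added after seeing the data. Matched on −log10 q, background ratios were 0.637 proximally and 1.08 distally, and away from gene ends the distal ratio was 1.12. The causes were not tested, and the value matched on background is a description as well, since DMSO background also placed the division.

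Leaving out each library in turn gave ratios of peak counts on 5q of 0.371 to 0.542, differences in share of -0.165 to -0.117 points and densities of 0.935 to 0.946. Strength differences were -1.77 to -1.06, and losses beyond strength were 0.717 to 2.64 points on 5q, 7.47 to 11.8 proximally and -2.56 to -0.446 distally. The share in ACSS2i alone was 2.37% to 12.9%. Group differences in background ratio were 0.0625 to 0.154, and mean ratios were 0.967 to 1.01 on 5q, 0.594 to 0.613 proximally and 1.10 to 1.11 distally.

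With the replicate number as a block, the exact permutation p was 0.5 for the peak count (ratio 0.440), the share (-0.141 points) and the background ratio (0.108), the smallest p such pairing allows, and no value changed. Across 13306 regions the replicate differences in log2 fold of both groups correlated with r = 0.166, but there are 2 pairs and the labels tie the numbers to nothing, so the libraries share only a number. Read depth is unknown, and background levels under the genome background cannot be seen.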
